A study of Mus musculus with 4 samples.

Results

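The genes examined were 9 genes known from fetal and regenerating epithelium, chosen by name: Lin28a, Lin28b, Igf2bp1, Igf2bp2, Igf2bp3, Hmga2, Ly6a, Anxa1 and Clu. All 9 were found among the 21418 autosomal protein-coding genes of the mouse annotation used. From 5 kb upstream of each gene to its end, 1473 bins of 200 bp could be tested, of 4076373 tested on all autosomes. DNA methylation had been measured by whole-genome bisulfite sequencing, which reads an unmethylated cytosine as T and a methylated one as C.

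The DNA came from the colon of mice labelled as strain C57, which the methods describe as the offspring of wild-type C57 mice and of knock-in mice that express EGFP and a Cre recombinase from the Lgr5 locus. Intestinal stem cells (ISCs) were sorted as EGFP-positive, and differentiated epithelial cells as EpCAM-positive and EGFP-negative, on postnatal day 0 (P0, birth) and day 21 (P21, the end of suckling). No treatment was given. Each of the 4 groups had 1 library made from pooled mice, several litters at P0 and reporter-positive offspring at P21, so that every test here compares libraries, not conditions, and no spread between animals is known.

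LIN28A and LIN28B are RNA-binding proteins that hold back the maturation of let-7 microRNAs, and IGF2BP1, IGF2BP2 and IGF2BP3 are RNA-binding proteins that stabilise many transcripts, several of them let-7 targets. HMGA2 is a chromatin protein whose transcript is a classical let-7 target. Most of these genes are typically active before birth and low in adult tissues, while Igf2bp2 is also widely expressed in adults. Ly6a (Sca-1), Anxa1 (annexin A1) and Clu (clusterin) mark intestinal epithelium that has returned to a fetal-like state during repair. Methylation of CpG-dense promoters usually goes with a silent gene, whereas methylation inside genes is common in active ones.

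The median number of calls per bin was 55 in the ISC P0 library, 81 in differentiated P0, 58 in ISC P21 and 68 in differentiated P21, and over the member bins it was 61, 95, 66 and 79. The promoters of 9 epithelial genes had a median level of 4.18% in ISC P0 and 2.63% in ISC P21. The genes were Epcam, Cdh1, Krt8, Krt18, Krt19, Krt20, Vil1, Cdx1 and Cdx2, and the median does not show the spread between them. Promoters of 6 immune genes (median 75.3% and 74.6%) and 4 endothelial genes (75.5% and 71.7%) were mostly methylated. Coro1a (7.77% and 11.2%) and Kdr (2.35% and 3.63%) were the low ones among them, and promoters of 6 stromal genes had medians of 12.2% and 10.5%. The bodies of the 9 epithelial genes moved with age: their median was 58.5% in ISC P0, 57.7% in differentiated P0, 45.2% in ISC P21 and 40.7% in differentiated P21, with called losses in 8 of 9 in ISCs and 6 of 9 in differentiated cells, against 5.07% and 5.60% of all bodies. The others were also lower at P21, below the limit for a call or not past the test. The part of this in the results was not tested, and a change in the mix of cells cannot be told apart from a change within cells. The promoter of Lgr5, the gene that drives the reporter, was low in all libraries (1.49% to 5.77%).

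The sequences of regions on which the results turn are given on the strand of the gene, 5' to 3', from mm9, with each CpG in capitals. They are the CpG-richest bin of the longest run of bins that changed with age in 4 genes, with 1 further Hmga2 bin that was chosen after its values were seen.
Igf2bp1 intron 2, gain (chr11:95863401-95863600): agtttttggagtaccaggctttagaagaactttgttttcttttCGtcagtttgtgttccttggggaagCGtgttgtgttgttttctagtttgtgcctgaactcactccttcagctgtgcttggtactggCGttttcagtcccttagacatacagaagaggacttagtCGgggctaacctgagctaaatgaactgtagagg
Igf2bp2 intron 2, loss (chr16:22136801-22137000): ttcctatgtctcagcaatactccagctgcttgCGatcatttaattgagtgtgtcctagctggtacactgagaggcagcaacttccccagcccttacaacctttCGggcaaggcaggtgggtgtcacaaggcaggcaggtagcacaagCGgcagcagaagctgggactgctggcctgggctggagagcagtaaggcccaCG
Igf2bp3 intron 10, loss (chr6:49046801-49047000): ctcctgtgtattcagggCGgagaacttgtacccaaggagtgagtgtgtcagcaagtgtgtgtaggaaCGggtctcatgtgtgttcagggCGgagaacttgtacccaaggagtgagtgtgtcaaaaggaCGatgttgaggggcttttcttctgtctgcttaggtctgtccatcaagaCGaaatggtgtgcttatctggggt
Hmga2 intron 3, loss (chr10:119814401-119814600): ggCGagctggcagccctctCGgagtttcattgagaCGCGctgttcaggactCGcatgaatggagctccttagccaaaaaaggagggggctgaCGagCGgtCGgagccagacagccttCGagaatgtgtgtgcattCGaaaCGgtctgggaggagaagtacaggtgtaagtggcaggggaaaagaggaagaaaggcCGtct
Hmga2 intron 3, gain (chr10:119899001-119899200): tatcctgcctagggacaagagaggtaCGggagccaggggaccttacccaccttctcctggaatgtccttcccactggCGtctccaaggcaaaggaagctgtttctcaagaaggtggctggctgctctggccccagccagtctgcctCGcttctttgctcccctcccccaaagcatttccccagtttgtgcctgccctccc

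The promoters (1 kb to either side of the start) of 5 genes were almost unmethylated in all 4 libraries. In Lin28a, Igf2bp1, Igf2bp2, Igf2bp3 and Hmga2 the level lay between 0.238% and 1.99% across genes and libraries, and the changes from P0 to P21 lay between -0.214 and 0.298 percentage points. Of these, Igf2bp1, Igf2bp2, Igf2bp3 and Hmga2 have promoters with 157 to 173 CpGs in 2001 bp, above at least 94.9% of all promoters, while Lin28a has 79. Over all genes the promoters with a CpG island (CGI) bin had a median level of 4.55% in ISC P0. The Hmga2 promoter was at 0.478% in ISC P0, 0.359% in differentiated P0, 0.264% in ISC P21 and 0.578% in differentiated P21, on 2652 to 5565 calls.

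Lin28b has another annotated start besides the one used, and both were low. Its promoter was at 1.97% in ISC P0, 2.06% in differentiated P0, 3.69% in ISC P21 and 3.35% in differentiated P21, which are differences of 1.72 points in ISCs (95% interval 0.0579 to 3.51, adjusted p = 0.144, Fisher's exact test) and 1.29 points in differentiated cells (adjusted p = 0.313). The second start, on chromosome 10 at 45205583, lies in a stretch of 200 CpGs and was at 0.934%, 0.937%, 2.04% and 1.13% in the same order of libraries.

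The promoters of the 3 regeneration genes have fewer CpGs than those of the 4 densest, and only Clu has CGI bins among them. Clu, which encodes a secreted chaperone, was at 28.9% (95% interval 26.1 to 31.8) in ISC P0, 27.3% (25.4 to 29.3) in differentiated P0, 35.7% (33.0 to 38.5) in ISC P21 and 28.9% (26.7 to 31.3) in differentiated P21. By tested bins only the ISC P21 library stood apart, and the interval of no other library reached it. Over all 56 CpGs ISC P0 was at 32.7% (29.9 to 35.6) and ISC P21 at 37.6% (34.9 to 40.4), so their intervals overlap. The gain of 6.80 points in ISCs was called (adjusted p = 0.0064, Fisher's exact test), and the change of 1.66 points in differentiated cells was not (adjusted p = 0.491). The difference between these changes was 5.14 points (SE 2.53) and did not pass a Wald test, so the gain is not shown to be particular to ISCs. With every CpG of the region counted, the ISC gain was 4.95 points, under the limit of 5 points for a call, and it was 3.27 points as the mean of bin levels and 4.69 with bins shifted by 100 bp. Within the Clu promoter the 4 CGI bins were at 0.206% to 19.1%, and the 4 other bins at 66.3% to 100%.

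Anxa1, an annexin, has 16 CpGs in its promoter, and only 11 lie in tested bins. These were at 1.30% (2 of 154 calls) in ISC P0, 3.47% (5 of 144) in differentiated P0, 0.599% (1 of 167) in ISC P21 and 0 of 156 calls in differentiated P21, which allows up to 1.92%. Over all 16 CpGs the levels were 24.7%, 21.7%, 24.6% and 13.0%, so that the tested bins describe the low part of the promoter. With all 16 CpGs counted the difference of -8.67 points in differentiated cells was called. Ly6a, a small surface protein anchored by a lipid, has 8 CpGs in its promoter and 1 tested bin with 2 CpGs. That bin was at 20% (interval 8.07 to 41.6) in ISC P0, 10.2% (4.44 to 21.8) in differentiated P0, 46.4% (29.5 to 64.2) in ISC P21 and 17.5% (8.75 to 31.9) in differentiated P21, on 20 to 49 calls. The intervals of ISC P0 and ISC P21 overlap, and the difference of 26.4 points was not called (adjusted p = 0.207, Fisher's exact test). With bins shifted by 100 bp it was -7.19 points. Over all 8 CpGs the levels were 59.3%, 44.7%, 62.5% and 48.5%. The Ly6a body and last exon had no tested bin. All 4 CpGs of its body were at 64.3% (52.6 to 74.5) in ISC P0, 77.2% (67.6 to 84.6) in differentiated P0, 69.8% (57.6 to 79.8) in ISC P21 and 56.9% (44.1 to 68.8) in differentiated P21, on 58 to 92 calls. The loss in differentiated cells passed the test when every CpG was counted.

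By tested bins Ly6a had the largest promoter change of the 9 genes, which rests on 1 bin. Over all CpGs of the promoter it was 3.16 points in ISCs, below Clu (4.95), and 3.80 in differentiated cells, smaller in size than Anxa1 (-8.67). Among 17819 promoters with at least 200 calls, those nearest to this 1 bin over the 4 libraries were Ppm1m, Ttc29 and Spag1, at distances of 12.3, 13.3 and 13.5 points. Ppm1m was at 17.6%, 13.2%, 35.0% and 20.1%. The levels of Ly6a over all 8 CpGs lay well above these, so the likeness holds for the bin alone.

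**Figure D1:**
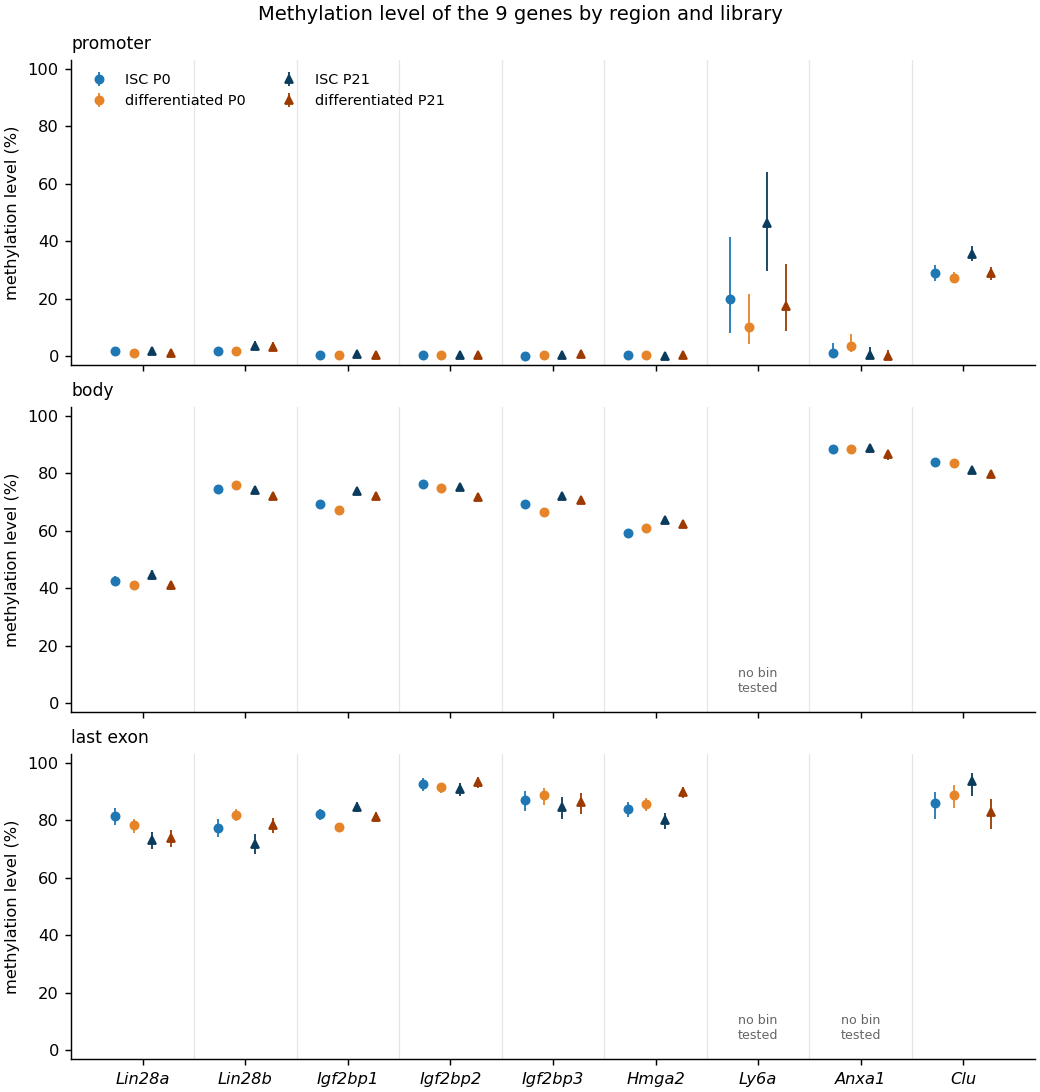
Methylation level (%) of the promoter, body and last exon of each gene in the 4 libraries, with 95% Wilson intervals that cover counting error only. By their tested bins 7 promoters are at the bottom of the scale in every library, while bodies lie between 41.0% and 88.7% and last exons between 71.8% and 93.5%. For Anxa1 these bins hold 11 of the 16 promoter CpGs, and over all 16 the levels were 13.0% to 24.7%.

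Gene bodies and last exons were methylated in all genes that could be tested, from 41.0% in the Lin28a body to 93.5% in the last exon of Clu. The body of Igf2bp1 rose from 69.2% (68.3 to 70.1) in ISC P0 and 67.1% (66.4 to 67.8) in differentiated P0 to 73.9% (73.1 to 74.7) in ISC P21 and 72.2% (71.5 to 72.9) in differentiated P21. Both P21 libraries were above both P0 libraries. By Fisher's exact test the gain was 4.68 points in ISCs (adjusted p = 2.1e-12), just under the limit, and 5.03 points in differentiated cells (adjusted p = 4.26e-22), just above it. The body of Igf2bp3 differed in the same direction by 2.92 points in ISCs and 3.92 points in differentiated cells (Fisher's exact test, adjusted p = 1.99e-08 and 1.72e-21), and that of Hmga2 by 4.40 and 1.38 points (2.28e-29 and 0.000162). The body of Igf2bp2 went the other way, by -0.939 points in ISCs (Fisher's exact test, adjusted p = 0.0796) and -3.12 points in differentiated cells (8.24e-19). Clu differed by -2.82 and -3.78 points, and the Lin28b body by -3.99 points in differentiated cells alone, with -0.382 points in ISCs. These values weight each CpG by its calls, and as means of bin levels some moved. Clu was then at -0.437 points in ISCs and 0.613 in differentiated cells, with its direction turned in the latter, and Lin28b at 0.908 and -1.39. Igf2bp2 was at -2.33 and -1.93 points, and in differentiated cells Hmga2 was at 2.84 and Igf2bp3 at 2.43. Igf2bp1 was at 6.62 points in ISCs and 7.42 in differentiated cells, but at 4.62 in the latter with bins shifted by 100 bp, under the limit. With all CpGs of the exact region counted, Igf2bp1 was at 5.05 points in ISCs and 5.47 in differentiated cells, and it was called in both. The Lin28a body was the least methylated, at 42.6%, 41.2%, 44.6% and 41.0%, and that of Anxa1 the most, at 88.3%, 88.3%, 88.7% and 86.5%.

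The last exon of Lin28a fell by 8.34 points in ISCs, from 81.4% (78.3 to 84.2) to 73.1% (69.9 to 76.0) (Fisher's exact test, adjusted p = 0.0016), and was at 78.2% and 73.8% in differentiated P0 and P21 (adjusted p = 0.0853). With all CpGs of the exact regions counted, the last exons of Lin28a (-6.49 points) and Lin28b (-5.15 points) were called in differentiated cells. For 3 of 7 last exons the sign differed between populations. Igf2bp2 differed by -1.77 points in ISCs and 1.94 in differentiated cells. Hmga2 was at 83.8% and 79.9% in ISC P0 and P21 but at 85.7% and 89.7% in differentiated cells, and Clu, with 1 bin of 7 CpGs, was at 85.8% and 93.5% in ISCs and 88.8% and 82.8% in differentiated cells. None of these changes was called. For the promoters, 1 of 9 was called with age in ISCs and 0 of 9 in differentiated cells, where 10.3% and 8.94% of all promoters were called. For the bodies it was 0 and 1 of 8, against 8.24% and 8.61% of all bodies, and for last exons 1 and 0 of 7, against 12.0% and 12.6%. These numbers of calls are near those of genes in general.

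At the scale of 200-bp bins the genes moved more often. A bin was called at an adjusted p below 0.05 (Fisher's exact test, Benjamini-Hochberg over all autosomal bins) and more than 15 points. In ISCs 58 member bins gained methylation with age (3.94%) and 28 lost it (1.90%), against 1.07% and 1.48% of all bins. In differentiated cells 70 gained (4.75%) and 44 lost (2.99%), against 0.992% and 1.86%. In the windows of any protein-coding gene, 1.26% of bins gained and 1.62% lost in ISCs, and 1.22% and 2.02% in differentiated cells. The gains were uneven: all but 12 of the 58 in ISCs and all but 26 of the 70 in differentiated cells lay in Hmga2 and Igf2bp1. Without these 2 genes, a choice made after the values were seen, the share that gained was 1.33% in ISCs and 2.89% in differentiated cells, and the share that lost was 2.11% and 2.66%.

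Of the 86 bins called in ISCs 51.2% were called in the same direction in differentiated cells, and these are 38.6% of the 114 called there. Over all autosomal bins the shares were 36.3% and 32.5%. None of the 1473 member bins was called in opposite directions. Of all 4076373 bins 320 were, so few that a 0 in a set of this size says little. The 2 contrasts use separate libraries, but the populations of one age came from pooled mice and may share animals. Of the promoter bins 1 of 66 was called in either population, of the last-exon bins 0 of 69 and of the body bins 153 of 1245. Over all protein-coding genes 3.995% of promoter bins, 5.15% of last-exon bins and 5.02% of body bins were called in either. Between populations, at P0 5 member bins were higher in differentiated cells and 1 lower, where 0.288% and 0.22% of all bins were, and at P21 0 were higher and 1 lower, where 0.0711% and 0.111% of all bins were. Among the bins at P0 was 1 in Hmga2 intron 3 at 4.62% in ISCs and 32.9% in differentiated cells, and 1 in Lin28a intron 2 at 9.26% and 40.0%. At P21 these bins were at 10.3% and 9.38%, and at 26.3% and 14.5%.

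Of the promoters, bodies and last exons, 0 of 24 were called between populations at P0 (Fisher's exact test), where 14.7%, 7.8% and 8.64% of all promoters, bodies and last exons were. At P21 4 of 24 were called, namely 1 of 9 promoters, 0 of 8 bodies and 3 of 7 last exons, against 10.8%, 6.65% and 6.76% of all. The last exons of Hmga2 (9.72 points, 95% interval 6.35 to 13.2) and Lin28b (6.44 points, 2.31 to 10.6) were higher in differentiated cells. The last exon of Clu (-10.8 points, -17.2 to -4.02), which rests on 1 bin, and the promoter of Clu (-6.77 points, -10.3 to -3.22) were lower.

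Members held more bins of low level than the genome does. With the starting level read in the P0 library of the other population, which a contrast did not use, 17.0% of member bins and 6.18% of all bins started below 20% for the ISC contrast. Of these, 3.59% of member bins and 1.54% of all bins gained in ISCs, and 0.398% and 1.21% lost. For the differentiated contrast 17.4% and 6.29% started below 20%, where 5.45% and 1.38% gained and 2.33% and 1.90% lost. Between 20% and 80% the shares were close, at 32.5% of member bins and 30.4% of all bins for ISCs and 32.0% and 30.4% for differentiated cells. There 8.35% of member bins gained and 4.38% lost in ISCs, against 2.49% and 3.46% of all such bins. In differentiated cells 10.8% gained and 6.57% lost, against 2.34% and 4.18%. The shares by starting level were not computed without Hmga2 and Igf2bp1, which held most of the gains.

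**Figure D2:**
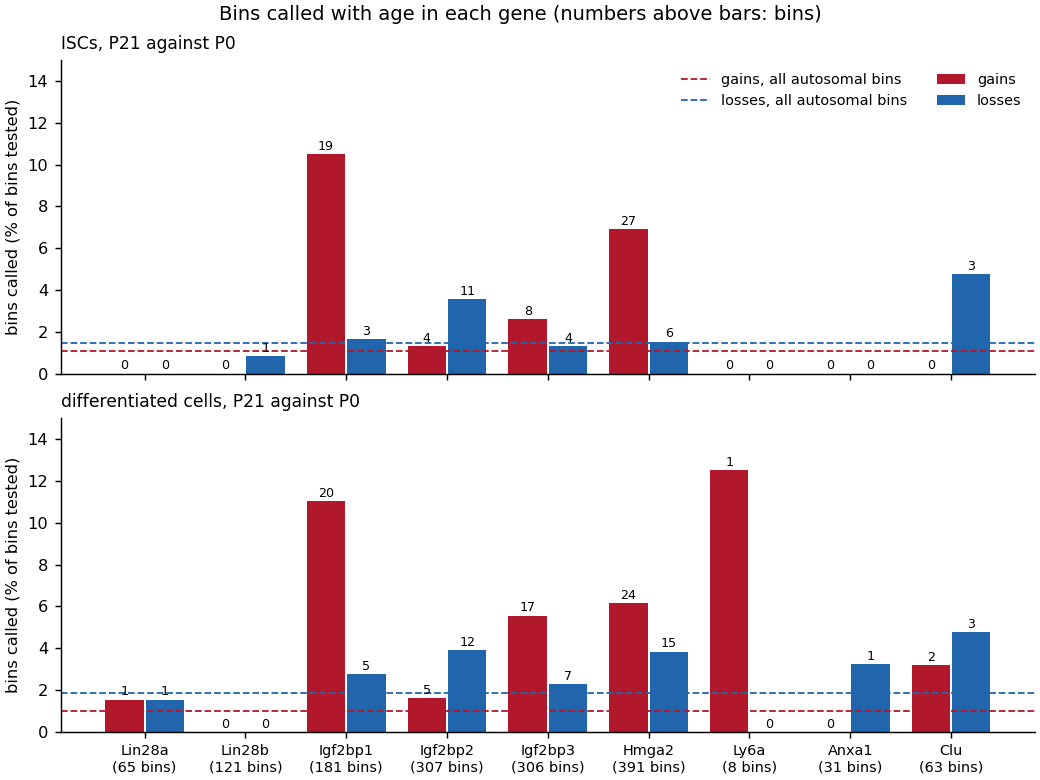
Bins that gained (red) or lost (blue) methylation from P0 to P21, in % of each gene's tested bins, in ISCs (top) and differentiated cells (bottom), with the number of bins above each bar and the share of all autosomal bins as dashed lines. Igf2bp1 (19 and 20 gains) and Hmga2 (27 and 24) exceed the line for gains in both panels, as do Igf2bp3 (8 and 17) and Igf2bp2 (4 and 5). Igf2bp2 (11 and 12 losses), Clu (3 and 3), Hmga2 (6 and 15) and Igf2bp1 (3 and 5) exceed the line for losses in both. In ISCs the Hmga2 and Igf2bp1 losses and the Igf2bp2 gains lie only just above their lines, and the Ly6a bar rests on 1 bin.

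Igf2bp1 gained methylation next to its unmethylated promoter. This gene, on chromosome 11 (95818477 to 95867254, minus strand), had 19 gains and 3 losses in ISCs and 20 gains and 5 losses in differentiated cells among 181 bins. All gains lay in intron 2, which holds 83 of its bins, and 13 were shared by both populations. Up to 2 kb into the gene the mean bin level stayed between 0.3% and 4.14% in every library. From 2 to 5 kb it was 21.4% in ISC P0, 17.9% in differentiated P0, 61.5% in ISC P21 and 58.6% in differentiated P21, over 10 bins of which 7 gained in ISCs and 9 in differentiated cells. From 5 to 10 kb it was 74.9%, 73.1%, 83.4% and 84.5%. Both P21 libraries were thus higher over the same stretch. Over 11711 genes with a CGI promoter bin, the mean over the same distance (2 to 5 kb) was 74.0% and 73.3% in ISC P0 and P21, and 1.64% of its bins gained in ISCs. These bins started far higher than those of Igf2bp1, so the shares of gains are not a like comparison. Of 39 such bins in the 6 members with a CGI promoter bin, Igf2bp1 among them, 9 gained in ISCs and 15 in differentiated cells.

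The longest Igf2bp1 run of adjacent called bins in each population is in this stretch. The 4 bins 95863001 to 95863800, with 13 CpGs, were at 38.2% (32.4 to 44.4) in ISC P0, 34.2% (29.9 to 38.8) in differentiated P0, 77.3% (71.8 to 82.0) in ISC P21 and 71.4% (66.5 to 75.9) in differentiated P21, and in differentiated cells the run went on for 1 more bin, to 95862801. In the printed sequence of this run the first CpG, at position 44, was methylated in 34.6% of calls in ISC P0, 25% in differentiated P0, 94.7% in ISC P21 and 79.5% in differentiated P21, and the last, at position 168, in 63.6%, 45.8%, 69.2% and 65.8%. These single-CpG levels rest on 13 to 48 calls each, and a difference between CpGs was not tested. Nearer the start, the 3 bins 95864401 to 95865000 were at 7.04% (3.05 to 15.4), 5.56% (3.05 to 9.92), 46.1% (39.6 to 52.7) and 53.0% (45.8 to 60.2) in the same order. These runs were chosen for their change, so the values describe them.

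A second CpG-dense stretch, named after its values were seen, lies 14153 bp into Igf2bp1, also in intron 2. Over 3 CGI bins (95852601 to 95853200, 37 CpGs) the level was 9.35% (6.62 to 13.0) in ISC P0, 10.6% (8.32 to 13.4) in differentiated P0, 31.0% (26.6 to 35.7) in ISC P21 and 33.9% (29.6 to 38.4) in differentiated P21. These 3 bins were called in ISCs, and 2 of them in differentiated cells. The CGI gains of the 9 genes were 4 in ISCs and 4 in differentiated cells. They lay in the 5 adjacent CGI bins from 95852201 to 95853200, which are not the promoter CGI. These counts were not set against the share of all CGI bins that gained, so whether they exceed it is not known.

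**Figure D3:**
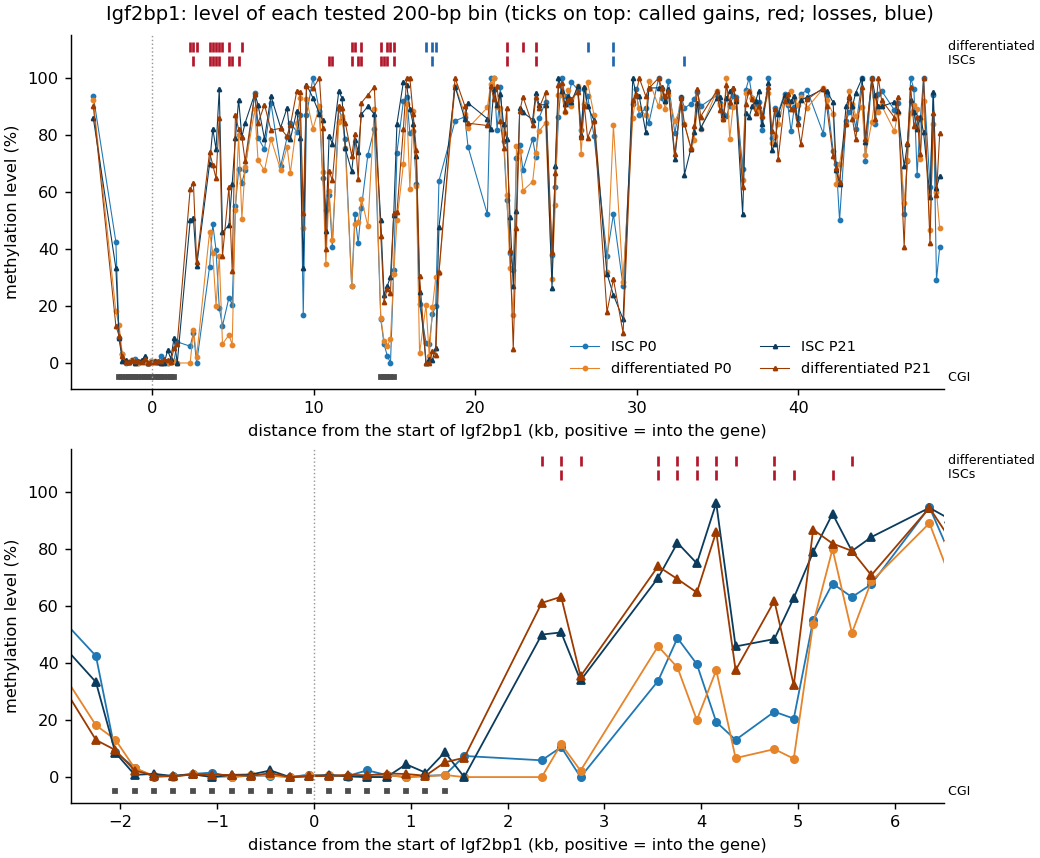
Level (%) of every tested bin of Igf2bp1 in the 4 libraries against distance from its start, for the whole gene (top) and its first kilobases (bottom), with called gains (red) and losses (blue) as ticks and CGI bins as grey squares. Around the start all libraries lie near 0, and from 2 to 5 kb the P21 libraries (means 61.5% and 58.6%) lie above the P0 libraries (21.4% and 17.9%).

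Igf2bp2 showed mostly losses, with 11 losses and 4 gains in ISCs and 12 losses and 5 gains in differentiated cells among 307 bins on chromosome 16 (22059082 to 22163372, minus strand). Every loss was in intron 2, and 7 were shared. This intron holds 185 of its bins and also 3 of the gains in each population. The 3 bins 22136801 to 22137400 were at 69.4% (62.4 to 75.6) in ISC P0, 48.5% (43.1 to 53.9) in differentiated P0, 16.0% (11.4 to 22.1) in ISC P21 and 32.7% (26.96 to 39.1) in differentiated P21. The run was chosen for its loss in ISCs, where 3 of 3 bins were called, against 1 of 3 in differentiated cells, so its levels are no comparison of the populations, and none of its bins was called between them. In the printed sequence the CpG at position 33 was at 100% in ISC P0 and 29.6% in ISC P21, with 73.9% and 65.5% in differentiated P0 and P21. The 2 bins 22131401 to 22131800 fell in both populations, from 83.8% (77.3 to 88.7) to 26.7% (19.9 to 34.9) in ISCs and from 76.3% (70.1 to 81.5) to 32.5% (26.3 to 39.3) in differentiated cells. The 3 bins 22129401 to 22130000 went from 83.4% to 56.2% and from 77.5% to 49.6%. A second Igf2bp2 start, at 22161523, was almost unmethylated, at 0.646%, 0.602%, 1.60% and 1.71%. The bin 22160801 to 22161000, within 1 kb of it, gained in differentiated cells, from 0 of 40 calls to 21.6%. That 0 allows up to 7.5%.

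Igf2bp3, on chromosome 6 (49035220 to 49164953, minus strand), gained in 8 bins and lost in 4 in ISCs, and gained in 17 and lost in 7 in differentiated cells, among 306. Its gains lay mainly in introns 2 and 3, which hold 92 and 85 of its bins. Its losses lay mainly in intron 10, which holds 21. The 3 bins 49046401 to 49047000 of intron 10 fell from 53.8% (48.2 to 59.4) to 20.5% (16.2 to 25.5) in ISCs and from 43.6% (40.4 to 46.9) to 18.2% (15.6 to 21.2) in differentiated cells, and in differentiated cells 1 more bin was called. In the printed Igf2bp3 sequence the CpG at position 18 was at 46.2% in ISC P0, 66.3% in differentiated P0, 6.90% in ISC P21 and 3.03% in differentiated P21. The CpG at position 68 was low throughout, at 6.90% in ISC P0 and 10.5% in differentiated P0, and with 0 of 35 calls in ISC P21 and 0 of 94 in differentiated P21, which allow up to 8.57% and 3.19%. A single-bin gain of Igf2bp3, at 49161801 to 49162000 in intron 2, was from 0 of 23 calls, which allows up to 13.0%, to 62.5% of 16 calls (interval 38.6 to 81.5) in differentiated cells, and the ISC libraries were at 10.2% and 32.4%. Among the Igf2bp3 bins that gained in both populations, the following pair was chosen after its values were seen. The bin 49162801 to 49163000, 2052 bp from the start, was at 1.02% (0.180 to 5.56) in ISC P0, 2.48% (1.26 to 4.81) in differentiated P0, 20.5% (14.98 to 27.4) in ISC P21 and 35.3% (29.8 to 41.3) in differentiated P21, on 98 to 323 calls. The bin 49161001 to 49161200 was at 33.3%, 26.3%, 90.9% and 82.4% on 17 to 22 calls.

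Hmga2, on chromosome 10 (119798331 to 119913525, minus strand), had the most called bins, 27 gains and 6 losses in ISCs and 24 gains and 15 losses in differentiated cells among 391. Most lay in intron 3, which holds 288 of its bins. Intron 5, with 23 bins, held 5 gains in ISCs and 7 in differentiated cells and no loss. The 7 adjacent bins from 119802001 to 119803400 there, chosen after their values were seen, each gained in at least 1 population, as the bin at 119802601 did in both, from 38.4% to 65.7% in ISCs and from 35.9% to 58.1% in differentiated cells. The longest run called within 1 population was a loss in differentiated cells, and 2 of its 4 bins were called in ISCs. The 4 bins 119814401 to 119815200 were at 48.6% (45.1 to 52.2) in ISC P0, 48.8% (46.3 to 51.4) in differentiated P0, 28.8% (25.3 to 32.7) in ISC P21 and 22.5% (20.1 to 25.1) in differentiated P21. The printed bin of this run holds 12 CpGs. The CpG at position 3 went from 66.7% to 17.9% in ISCs and from 53.8% to 15.1% in differentiated cells. The last, at position 196, was at 51.3% and 52.5% in ISC P0 and P21, and at 45.3% and 44.7% in differentiated P0 and P21. Hmga2 bins 119865401 to 119866000, of which 2 are CGI bins, fell from 35.2% (32.3 to 38.3) to 15.2% (13.1 to 17.5) in differentiated cells and were at 34.1% and 24.4% in ISCs, where they were not called. Bins 119812601 to 119813200 gained in ISCs, from 62.6% to 82.6%, and were at 74.7% and 82.5% in differentiated cells. They and the longest run also lie in a long noncoding gene, 1700006J14Rik, on the other strand. The further printed gain, bins 119898801 to 119899200, rose from 28.1% (21.2 to 36.3) to 59.6% (51.6 to 67.1) in ISCs and from 27.5% (22.7 to 32.8) to 65.1% (58.5 to 71.2) in differentiated cells.

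Clu, on chromosome 14 (66587320 to 66600385, plus strand), lost methylation over 3 adjacent bins in both populations. Bins 66598201 to 66598800, which cover exon 7 and the ends of introns 6 and 7, were at 74.7% (70.6 to 78.4) in ISC P0, 75.8% (73.4 to 77.9) in differentiated P0, 42.6% (38.2 to 47.0) in ISC P21 and 48.8% (45.7 to 51.8) in differentiated P21, on 475 to 1394 calls. In intron 1, 2 Clu bins gained in differentiated cells only by the call: 66588001 to 66588200 was at 66.3% and 88.2% in differentiated cells and at 73.6% and 84.6% in ISCs, and 66589201 to 66589400 at 36.2% and 79.2%, and at 48.8% and 67.3%. Both bins were higher at P21 in ISCs too, and the difference between populations was not tested per bin. By the starts used, the first of them is the only promoter bin of the 9 genes that was called. Clu has another annotated start, at 66589457, and the second bin lies within 1 kb of it. Around this start the levels were 77.1% in ISC P0, 75.5% in differentiated P0, 84.0% in ISC P21 and 80.6% in differentiated P21.

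The called bins of the remaining genes can be given singly. Lin28b had 1 of 121, in intron 2, at 95.6% in ISC P0, 81.5% in differentiated P0, 72.9% in ISC P21 and 80.7% in differentiated P21. Lin28a had 0 of 65 in ISCs and 2 in differentiated cells, 1 gain in intron 3 from 41.2% to 100% on 17 and 18 calls and 1 loss in intron 2 from 40.0% to 14.5%. Anxa1 had 1 loss of 31 bins in differentiated cells, from 98.7% to 79.7%, where ISCs were at 87.1% and 100%. Ly6a had 1 gain of 8 bins, at position -1837 bp from its start, from 8.45% to 42.9% in differentiated cells, with 29.7% and 38.8% in ISCs.

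**Figure D4:**
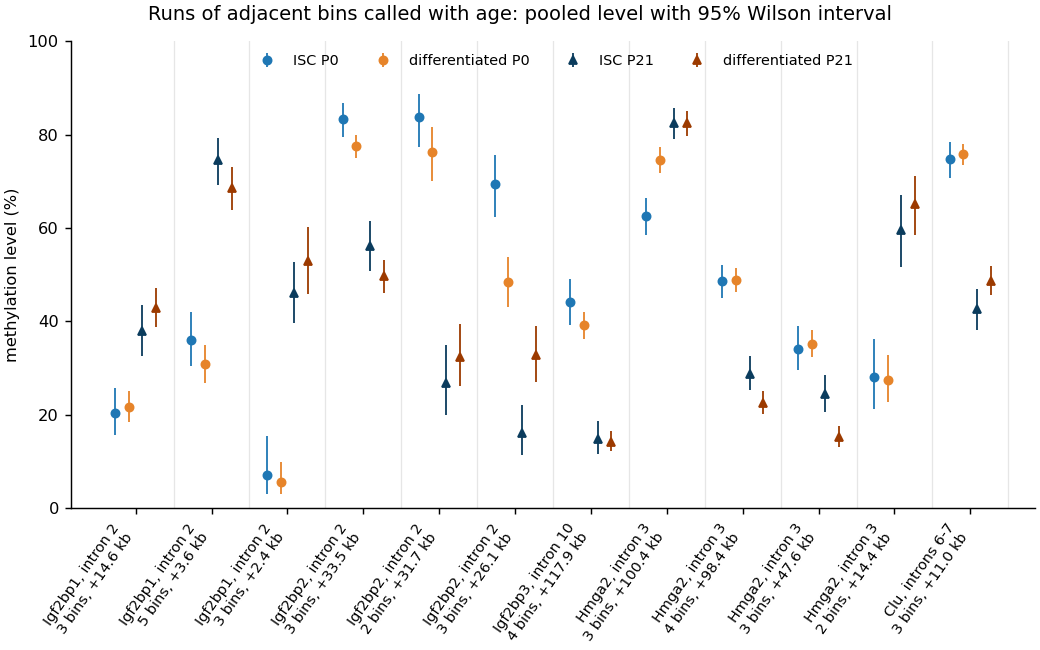
Level (%) of runs of adjacent called bins in the 4 libraries, pooled over the bins of a run, with 95% Wilson intervals; shown are runs of 3 or more bins, or of 2 or more called in both populations, and of overlapping runs the longest. Labels give the gene, the number of bins and the distance of the nearest bin from the start of the gene. The runs were chosen for their change with age, which largely fixes that both P21 libraries lie on the same side of both P0 libraries, as in the Clu run at 74.7% and 75.8% at P0 and 42.6% and 48.8% at P21.

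Other genes of the same pathways, 54 in 3 lists, changed at a minority of regions. Of all genes 4.96% of promoters gained and 5.36% lost in ISCs, and 4.58% gained and 4.36% lost in differentiated cells. For bodies it was 3.17% and 5.07% in ISCs and 3.004% and 5.60% in differentiated cells, and for last exons 6.73% and 5.28%, and 6.502% and 6.12%. Of 52 promoters tested, 5 gained and 0 lost in ISCs, and 3 gained and 0 lost in differentiated cells. Of 50 bodies, 7 gained and 0 lost in ISCs and 7 gained and 3 lost in differentiated cells, and of 50 last exons, 4 gained and 2 lost, and 6 gained and 3 lost. By list, the median promoter change in ISCs was 0.00848 points for 8 genes of let-7 processing, 0.104 for 14 let-7 or Igf2bp targets and growth signals and 0.344 for 30 genes of the regeneration and YAP programme, against -0.0528 over all promoters. Ankrd1, a YAP target, had a promoter gain in both populations, from 71.9% to 79.1% in ISCs and from 67.2% to 76.1% in differentiated cells. Among the further called promoters, not all of which are named, were gains in 1 population each: Anxa8 (22.7% to 36.4%), Il1rn (78.6% to 88.2%) and E2f6 (12.5% to 18.4%) in ISCs, and S100a6 (5.94% to 12.1%) and Anxa5 (4.75% to 10.1%) in differentiated cells.

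Some of these genes, named after their values were seen, changed in ISCs by more than any body or last exon of the 9. Trim71, a let-7 target that encodes a developmental ubiquitin ligase, rose over its body from 36.3% to 55.6% in ISCs and from 33.5% to 49.1% in differentiated cells, and 51 and 57 of its 203 bins gained. The last exon of Mycn, a proto-oncogene, rose from 38.2% to 78.2% and from 36.9% to 79.6%, and that of Myc fell from 78.0% to 50.6% and from 78.8% to 58.2%. The body of Cyr61, a YAP target, rose from 48.4% to 64.2% and from 47.6% to 67.5%, and that of Igf2, the growth factor, from 32.1% to 42.0% and from 31.0% to 36.3%. Of 10 let-7 loci searched, 7 were found. Mirlet7i lay in an unmethylated stretch (0.413%, 0.461%, 0.293% and 0.456%), and Mirlet7c-2 was at 88.5% in ISC P0, 84.1% in differentiated P0, 79.1% in ISC P21 and 74.7% in differentiated P21. Mirlet7a-1 differed by 16.9 points in ISCs and 0.158 in differentiated cells, with 8 CpGs and at least 50 calls a library, and Mirlet7g by 7.83 and -7.34 points. The other 3 loci, Mirlet7b, Mirlet7c-1 and Mirlet7d, differed by -4.80 to 2.89 points. Mirlet7b (at 85537749) and Mirlet7c-2 (at 85537033) are neighbours on chromosome 15. Their windows, 1 kb to either side, share much of their sequence, so they are not separate values.

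**Figure D5:**
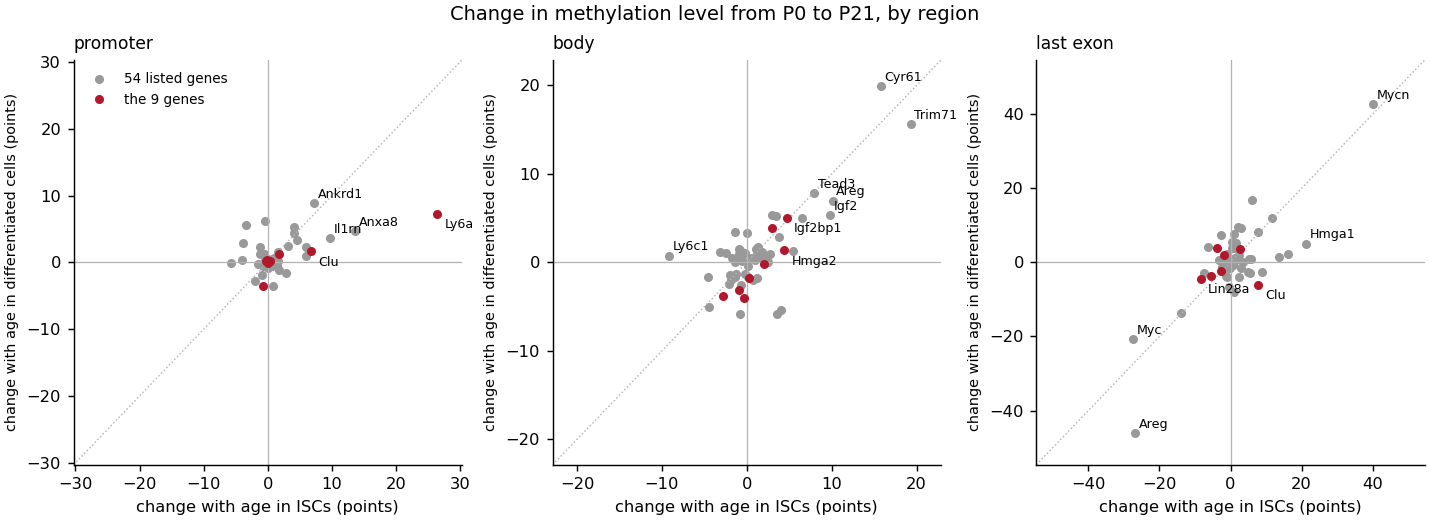
Change in level from P0 to P21 (percentage points) in ISCs (horizontal) and differentiated cells (vertical) for the promoter, body and last exon of the 9 genes (red) and of 54 pathway genes (grey), with the line of equal change dotted. Mycn (40.1 and 42.7 points) and Myc (-27.4 and -20.7) last exons and the Trim71 body (19.3 and 15.6) lie far along the line, and the red points lie near the centre except Ly6a, whose promoter value rests on 1 bin.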

How the data were processed

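Whole-genome bisulfite sequencing of 4 libraries, 1 per group, was used, with groups taken from the labels. Per the methods and labels the authors trimmed reads and mapped them to mm9 with Bismark (Bowtie is also named). Neither versions nor duplicate removal are stated in the labels or methods. The authors deposited, per CpG cytosine, a count of all calls, a count of methylated calls and their fraction. The deposited fraction was not used. Remaining duplicates would make tests call too much, and intervals cover counting error only.

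Strands were summed at the CpGs of the mm9 genome (0.469% to 0.859% of autosomal positions lay elsewhere), and autosomal calls were summed over 200-bp bins that held 2 or more CpGs and had 10 or more calls in every library. Total calls per library were 1023427645 to 1188114423, but CpGs with more than 500 calls, at most 0.0161% of CpGs, held 51.1% to 64.3% of autosomal calls, so the median of 16 to 25 calls per CpG describes the depth better. No member bin exceeded 1195 calls.

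Two-sided Fisher's exact tests (own code in Numba 0.67.0, checked against SciPy 1.17.1) were adjusted by Benjamini-Hochberg over all bins, or over the promoters, bodies and last exons of all genes, with limits of 15 and 5 points. Intervals are Wilson (levels) and Newcombe (differences) at 95%. A count of 0 allows 3 calls of the total. Genes follow GENCODE M1, by the transcript of longest coding sequence. A bin midpoint within 1 kb of the start is promoter, then last exon, then body. CGIs are windows of 500 bp with at least 25 CpGs. Populations were compared by a Wald test of the difference between both changes, adjusted over 54655 regions. The 9 genes, the pathway lists and the rule for named regions (per gene, the 3 runs of adjacent called bins with the most bins) were chosen with earlier results of these data known. Spi1 and 3 let-7 loci were not matched by name. On simulated data with 200 of 4076373 bins changed by 30 points, 17.5% (ISCs) and 26% (differentiated cells) were recovered, and with 80000 changed 41.0% and 54.3%. The changed bins were drawn only from bins of intermediate level, so recovery at low or high levels is not known. Alternatives were other minima, limits, bin offsets, thinned calls, exact regions and bin means. Of the listed genes and printed sequences, some are not reported here.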

Additional observations from a re-analysis of the deposited data

Results flagged for a closer look

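For 5 regions of the 9 genes the change from P0 to P21 differed between ISCs and differentiated cells by a Wald test of the difference (adjusted p below 0.05 over all regions), and 9.82% of all regions did so. The test compares 4 libraries and knows counting error only. The Hmga2 body gained 3.02 points more in ISCs (SE 0.492), from 59.2% to 63.6% against 60.9% to 62.3% in differentiated cells. As means of bin levels its changes were 4.07 and 2.84 points. The change of the Igf2bp2 body in ISCs minus that in differentiated cells was 2.18 points (SE 0.524), a smaller loss in ISCs, since it was -0.939 points there and -3.12 points in differentiated cells. As means of bin levels it was -2.33 and -1.93 points, which turns the sign of the difference. The Lin28b body was 3.61 points apart (SE 1.27), with the change in differentiated cells. The Hmga2 last exon differed by -7.82 points (SE 2.46), being lower at P21 in ISCs and higher in differentiated cells. The Clu last exon differed by 13.8 points (SE 4.57) on a single bin, and with bins shifted by 100 bp its change was -14.0 points in ISCs instead of 7.70 and -11.4 in differentiated cells instead of -6.07, so that both populations went down.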

How the results depend on the processing

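The number of member bins called with age depended on depth and limits. Against 86 in ISCs and 114 in differentiated cells, it was 55 and 60 with at least 4 CpGs. There 659 of 1473 bins were tested and 5.31% gained in each population, with 3.03% and 3.79% lost. The number was 43 and 49 at more than 30 points, and 274 and 234 at 15 points without a test. With the calls of each bin thinned to the lowest count among the 4 libraries in that bin, it was 56 and 53. Without Hmga2 and Igf2bp1, chosen after seeing the data, it was 31 and 50. With all 9 genes the share of gains stayed above that of all bins under each setting (for example 12.2% against 6.35% in ISCs without a test). The share of losses did not. Without a test it fell below that of all bins, at 6.38% against 7.18% in ISCs and 6.25% against 7.11% in differentiated cells. Between populations at P0 the count of 6 became 1 at 30 points, 164 without a test, 1 when thinned and 12 with bins shifted by 100 bp. At P21 the count of 1 became 2 with 4 CpGs, 0 at 30 points, 109 without a test, 0 when thinned and 3 when shifted. Of the regions, 2 were called in ISCs, and 4 passed 5 points by the mean of bin levels, which has no test and no longer included the Clu promoter, and 0 at 15 points. With at least 20 calls 3 were called in ISCs, with the Lin28b last exon added. With all CpGs of the exact region 2 were, with the Igf2bp1 body in place of the Clu promoter. In differentiated cells 1 was called, and 5 by the mean of bin levels, 5 with all CpGs of the exact region, and 0 with promoters of 500 bp, at 15 points and with at least 20 calls. The causes were not tested. Of the 3 changes called in the main analysis none reversed its sign. Among those not called there, the Clu body in differentiated cells went from -3.78 to 0.613 points by the mean of bin levels, and with bins shifted by 100 bp the Ly6a promoter went from 26.4 to -7.19 and the Clu last exon from 7.70 to -14.0 points in ISCs. In differentiated cells the Ly6a promoter went from 7.30 to -2.13 with shifted bins. The Igf2bp3 last exon went from -2.37 to 0.958 there by the mean of bin levels. Some smaller changes turned their sign too. No analysis paired by animal was possible because each group has 1 library of pooled mice, and no library could be left out. The depth minimum left 121 of 159 bins with 2 CpGs in Lin28b and 31 of 42 in Anxa1. Ly6a has few CpGs, with 9 such bins, of which 8 were tested.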
